A study of Rattus norvegicus with 5 samples.

Results

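The genes of the cytosolic ribosomal proteins were followed across INS-1 rat insulinoma cells and 4 clones made from them. A probe set, the group of short probes that reads 1 transcript on these arrays, was taken when its only gene symbol was Rpl or Rps followed by a digit, or Rpsa, Rplp0, Rplp1 or Rplp2, and when it was neither a ribosomal S6 kinase gene nor a pseudogene. The rule found 50 probe sets for 44 genes among the 15866 probe sets that were not controls. Of these, 45 probe sets for 40 genes were bright enough to be tested: 26 for the large subunit, 15 for the small subunit, 1 for the stalk (Rplp0) and 3 for the paralogues Rpl7l1 and Rps27l. The rule also took the paralogues Rpl3l and Rps4y2, which were too dim to test. Another 34 tested probe sets listed several genes with a ribosomal protein among them, and no gene was named from them.

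Total RNA from 5-3.14 and 5-3.19 (clone set 5-3), from 1-1.2 and 1-1.16 (clone set 1-1) and from the parental line was hybridised to 1 array per line. All 4 clones are Flp-In T-REx lines: each carries an FRT site, where Flp recombinase can place a gene, and the tetracycline repressor, which keeps such a gene silent until tetracycline is added. The labels do not say whether a gene had been inserted in these clones or tetracycline added, and the parental line is the one from which they were made. Each engineered line is 1 clone. What 1-1 and 5-3 mean is not given in the labels, nor whether the clones of a set share an origin, and with a single parental array nothing measures how much that line varies between cultures. Beta cell identity was checked with 12 marker genes, all bright enough to test. Ins1, an insulin gene, read 34381 to 42217 in the clones and 37360 in INS-1. The other insulin gene, Ins2, read 3953 in 5-3.14, 4303 in 5-3.19, 30224 in 1-1.2 and 5381 in 1-1.16, against 28816 in INS-1. Of the 12 markers, 10 had a lower mean in the clones (median −0.46 on the log2 scale used for the members), and limma called 0 of them; the part of this in the values of the members was not tested. Of the markers of other cell types on the array, 1 of 4 for other islet cells (Gcg, 2064 to 24434), 1 of 10 for acinar and duct cells (Krt7), 1 of 8 for fibroblasts (Thy1) and 0 of 7 for endothelium and leukocytes passed the same limit. An array of a culture cannot tell less RNA per cell from fewer cells that hold it.

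Ribosomes are built in the nucleolus from ribosomal RNA and a single copy of nearly every ribosomal protein, so cells make these proteins in matched amounts and destroy the unassembled surplus. Their mRNAs belong to the TOP class, named after the terminal oligopyrimidine tract at the start of the transcript, through which mTOR signalling sets how fast they are translated. Beta cells rely on a large translation capacity because proinsulin makes up much of their protein output.

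Runs of pyrimidines lay near many of the members' start sites. Promoter sequences from RefSeq (GRCr8) were matched for 39 of 44 member genes, 37 by gene number and 2 by symbol. The windows printed here hold the 15 bases before the annotated start and the first 15 bases of the transcript, 5′ to 3′. They are shown for 6 genes with large differences from the parental line and for both testable paralogues. Also shown are Rpl27a, which had the smallest difference of the members above that line in every clone, and Rpl5, the steadiest between clones relative to its signal. Capitals mark the longest run of C and T, where it has at least 5 bases.
Rps24 (chr16:96502-96531, plus strand): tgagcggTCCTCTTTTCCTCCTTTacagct
Rpl14 (chr8:129163605-129163634, plus strand): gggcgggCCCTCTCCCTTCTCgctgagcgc
Rps15a (chr1:181860270-181860299, minus strand): cggcgTTTTCTTTCCacagtcaccatggtg
Rpl18 (chr1:105325255-105325284, plus strand): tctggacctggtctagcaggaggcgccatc
Rpsa (chr8:128728864-128728893, plus strand): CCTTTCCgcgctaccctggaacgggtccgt
Rpl35a (chr11:81235007-81235036, minus strand): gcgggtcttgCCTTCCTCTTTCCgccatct
Rpl27a (chr1:172974558-172974587, plus strand): cgagacttggtgggCTCCTCCCTCTTTCTT
Rpl5 (chr14:1995211-1995240, minus strand): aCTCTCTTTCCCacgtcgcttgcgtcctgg
Rpl7l1 (chr9:21695703-21695732, plus strand): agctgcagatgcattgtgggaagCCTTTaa
Rps27l (chr8:76443643-76443672, plus strand): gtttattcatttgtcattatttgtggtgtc
In Rps24, Rpl14, Rpl35a and Rpl27a an unbroken run of C and T crosses the annotated start, while Rpl18 and Rps27l have no run of 5 in the window and that of Rpl7l1 lies after the start. Of 35 structural members with a promoter, 24 (68.6%) held a run of at least 8 such bases between 25 bases before and 15 after the start, against 16% of all 33469 promoters. Their median run was 10 bases, against 5. In the full window of 300 bases, read on both strands, GGGCGG was present in 62.9% of the 35 and 33.1% of all promoters. CCGGAAG, the core bound by Ets factors, was present in 22.9% and 8.75%, AAGATGGC, a YY1 type core, in 11.4% and 3.17%, and TATAAA in 11.4% and 14.2%. None of the 4 motifs contains another. Runs of C and T and these motifs are letters only, and the arrays do not measure binding or translation.

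The first comparison asked how ribosomal protein mRNA in the engineered clones related to the line they came from. Signals are on an arbitrary linear scale on which all arrays had nearly the same trimmed mean as deposited, and a probe set's signal is not a level that can be set against that of another probe set. With signals as deposited, the members read higher on the clone arrays, by little and almost without exception. Scaled to the added hybridisation controls, their median lay at −0.04, against −0.31 over all tested probe sets. Of 45 tested probe sets, 44 had a higher mean log2 signal in the clones (51.0% of all 9520 tested probe sets did), and 34 were above the parental array in all 4 clones (18.4% of all). By contrast, 0 were below it in all 4 (19.7% of all). The median difference was 0.27 on the log2(signal + 21.8) scale, which is 1.21-fold, against 0.01 over all tested probe sets and 0.06 over the 914 probe sets of the brightest 10% that are not members. Differences of single members ran from −0.00 to 0.81, with quartiles at 0.14 and 0.38.

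None of these differences passed. By limma, Benjamini-Hochberg adjusted, 0.0% of the 9520 probe sets and 0 of 45 members were called, with an adjusted p of 1.00 for each member. A limma fit of 3 groups, which keeps 5-3 and 1-1 apart, gave no member an adjusted p under 0.671. Without adjustment, p was under 0.05 for 5 members (Rps15a, Rps29, Rpl18, Rps24 and Rps6) and for 349 of all probe sets. The test has 3 residual degrees of freedom and 1 parental array, and all 45 differences subtract that same array, so the members are not separate pieces of evidence.

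Among the small subunit genes, Rps24, which encodes a protein needed to process the small subunit's ribosomal RNA, stood farthest from the parental line. Its probe set 1390494_at read 2079 in 5-3.14, 1661 in 5-3.19, 1496 in 1-1.2 and 1523 in 1-1.16, against 946.9 in INS-1. Every clone was above the parental array by a wide margin, the fitted difference being 0.81 ± 0.29 (log2, SE, 1.75-fold). The other Rps24 probe set, 1369966_a_at, read 28358 in 5-3.14, 25544 in 5-3.19, 28793 in 1-1.2 and 24233 in 1-1.16, against 24760 in INS-1. There the groups overlapped, with 1-1.16 below the parental array and a difference of 0.11 ± 0.15, so the probe sets of this gene gave the same direction and different sizes.

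Rps15a, a core protein of the small subunit, read 23950 in 5-3.14, 21961 in 5-3.19, 25228 in 1-1.2 and 22558 in 1-1.16, against 16700 in INS-1. All clones were above the parental array, and the difference was 0.49 ± 0.14, with the lowest unadjusted p of the members (limma, 0.0120). Rps29, a small zinc-binding protein, read 28427, 25063, 27352 and 23651 in 5-3.14, 5-3.19, 1-1.2 and 1-1.16, against 18728 in INS-1, which again left every clone above. Rps6, the substrate of the S6 kinases downstream of mTOR, read 22902 in 5-3.14, 22479 in 5-3.19, 21568 in 1-1.2 and 21940 in 1-1.16, against 17668 in INS-1. The clones lay close together here (SD 587.6, n = 4), and the difference was 0.33 ± 0.13.

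Rpsa, a small subunit protein also known as the laminin receptor precursor, had 3 probe sets, and in each of them all 4 clones were above the parental array. The one without a cross-hybridisation suffix, 1367569_at, read 14133 in 5-3.14, 11378 in 5-3.19, 15176 in 1-1.2 and 13693 in 1-1.16, against 9987 in INS-1. The differences were 0.44, 0.48 and 0.37 for 1367569_at, 1371189_x_at and 1388244_s_at. Rps15 and Rps28 had differences of 0.38 each, with 5-3.19 nearest to the parental array in both. At the other end, Rps3, which lines the channel where mRNA enters, Rps9, Rps3a, Rps23 and Rps16 had differences between 0.07 and 0.22. For Rps23 the clone 1-1.16 (32517) and for Rps16 the clone 5-3.19 (23875) read below INS-1 (33381 and 25816).

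**Figure D1:**
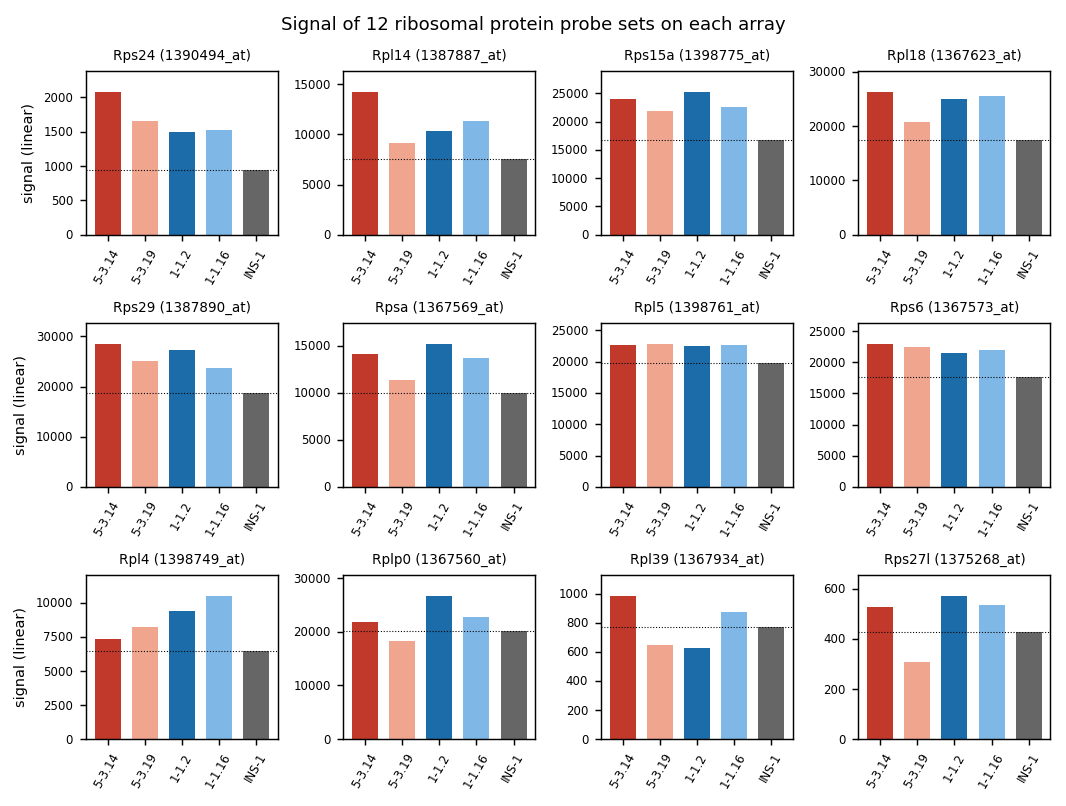
Bars give the linear signal (vertical axis, arbitrary units, starting at 0) of 12 ribosomal protein probe sets on the arrays of clones 5-3.14, 5-3.19, 1-1.2, 1-1.16 and parental INS-1, 1 array each, and the dotted line marks the parental signal. In Rps24 (1390494_at), Rpl14, Rps15a, Rpl18, Rps29, Rpsa, Rpl5, Rps6 and Rpl4 all 4 clones are above the line, while Rplp0, Rpl39 and Rps27l have clones on both sides.

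The large subunit genes showed the same direction. Rpl14 (1387887_at) read 14206 in 5-3.14, 9130 in 5-3.19, 10376 in 1-1.2 and 11340 in 1-1.16, against 7502 in INS-1, a difference of 0.57 ± 0.26. Rpl18 read 26258 in 5-3.14, 20721 in 5-3.19, 24939 in 1-1.2 and 25447 in 1-1.16, against 17345 in INS-1. Rpl35a, a gene mutated in Diamond-Blackfan anaemia in humans, read 21857 in 5-3.14, 15205 in 5-3.19, 19347 in 1-1.2 and 18570 in 1-1.16, against 13744 in INS-1. In both genes 5-3.19 was the clone nearest to the parental line. Rpl4, whose protein lines the tunnel through which new chains leave, had another order: 7343 in 5-3.14, 8242 in 5-3.19, 9386 in 1-1.2 and 10477 in 1-1.16, against 6504 in INS-1.

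Rpl12, a protein at the base of the stalk, read 22752 in 5-3.14, 17808 in 5-3.19, 17135 in 1-1.2 and 17613 in 1-1.16, against 14595 in INS-1, so 5-3.14 stood above the other clones. Rpl7 by 1398917_at read 21444 in 5-3.14, 20482 in 5-3.19, 22930 in 1-1.2 and 20707 in 1-1.16, against 17482 in INS-1, and its dim probe set 1375788_at also had every clone above the parental array. Rpl3, a protein near the catalytic centre, read 21217 in 5-3.14, 23257 in 5-3.19, 22322 in 1-1.2 and 23045 in 1-1.16, against 19251 in INS-1. Every clone was also above INS-1 for Rpl19, Rpl21, Rpl23a, Rpl24, Rpl34 and Rpl37a, with differences of 0.29 to 0.35, and for Rpl23, Rpl26, Rpl27, Rpl27a and Rpl35, with differences of 0.11 to 0.23.

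Rpl5 and Rpl11 encode partners that form a particle with the small ribosomal RNA of the large subunit and that can bind Mdm2, the regulator of p53. Relative to its signal, Rpl5 was the least variable member between clones, with 22648 in 5-3.14, 22757 in 5-3.19, 22516 in 1-1.2 and 22600 in 1-1.16 (SD 100.4, n = 4), against 19730 in INS-1. Rpl11 varied more, at 15445 in 5-3.14, 11561 in 5-3.19, 14345 in 1-1.2 and 13149 in 1-1.16, against 11211 in INS-1. Their differences were 0.20 ± 0.13 and 0.27 ± 0.20.

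At the low end of the large subunit stood Rpl39, which encodes a very small protein of the exit tunnel, with 981.4 in 5-3.14, 650.7 in 5-3.19, 623.8 in 1-1.2 and 871.5 in 1-1.16, against 769.3 in INS-1. It was the only member with a mean difference that was not positive (−0.00 ± 0.34), and its clones fell on both sides of the parental array. Rpl41 and Rpl7a had differences of 0.07 and 0.04, with 1-1.16 below the parental array in both. For Rpl6 the clone 5-3.19 (23526) and for Rpl13a the clone 1-1.2 (15605) were slightly below INS-1 (24524 and 15752). The stalk gene Rplp0, whose protein anchors the flexible stalk that recruits elongation factors, read 21858 in 5-3.14, 18260 in 5-3.19, 26593 in 1-1.2 and 22792 in 1-1.16, against 20116 in INS-1, so 3 clones were above and 5-3.19 was below. Over the 26 large subunit probe sets 21 were above the parental array in every clone (median 0.28), and over the 15 small subunit probe sets 12 were (median 0.37). The share over all tested probe sets was 18.4%.

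All 3 tested paralogue probe sets had a higher mean in the clones (51.0% of all), and 1 of 3 was above the parental array in every clone (18.4% of all). Rpl7l1, a nucleolar relative of Rpl7, read 2496 in 5-3.14, 2117 in 5-3.19, 2608 in 1-1.2 and 3200 in 1-1.16 by 1389013_at, against 2336 in INS-1, and 1455, 1240, 1278 and 1624 in the same order by 1372391_at, against 1216. Rps27l, a relative of Rps27 that p53 can induce in human cells, read 527.1 in 5-3.14, 306.3 in 5-3.19, 569.5 in 1-1.2 and 535.7 in 1-1.16, against 427.9 in INS-1. For 1389013_at and for Rps27l the clone 5-3.19 was the only array below the parental one. Of the 5 probe sets under the test limit, a signal of about 194, Rpl22 read 9.4 to 93.7, Rpl30 27.2 to 105.3, the second Rpl14 probe set 14.3 to 186.5, Rpl3l, which is expressed mainly in striated muscle, 11.7 to 25.9, and Rps4y2 8.2 to 49.8. No direction was taken from these signals.

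**Figure D2:**
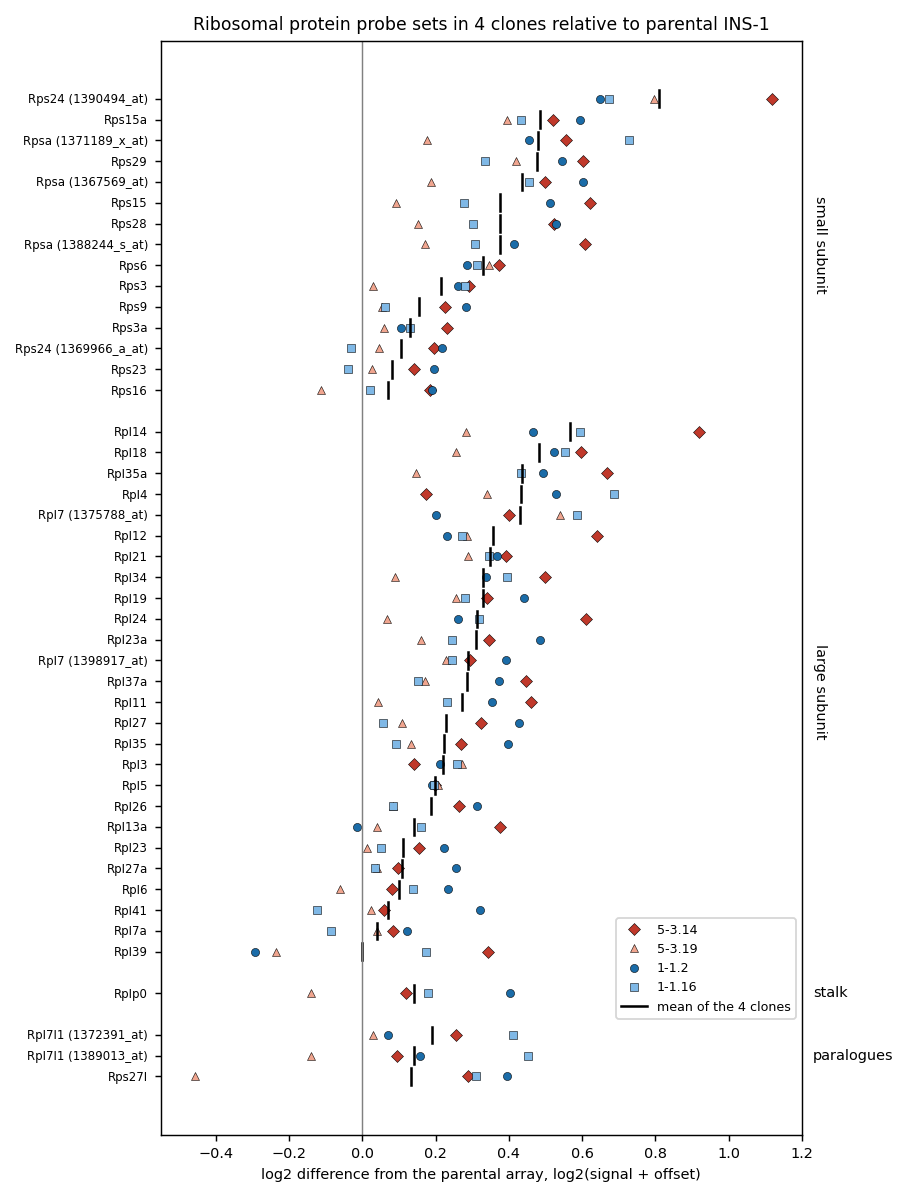
Each row is 1 of the 45 tested ribosomal protein probe sets, grouped as small subunit, large subunit, stalk and paralogues, and the horizontal axis is the log2 difference of each clone (symbols) from the parental array, with a black bar at the mean of the 4 clones. In 34 rows all 4 symbols lie right of 0, and the triangles of 5-3.19 lie left of the diamonds of 5-3.14 in 41 rows.

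The clones did not stand equally far from the parental line. In 5-3.14 all 45 members were above the parental array (48.3% of all probe sets were), in 5-3.19 there were 39 (49.0% of all), in 1-1.2 there were 43 (50.0%) and in 1-1.16 there were 41 (53.6%). The median difference was 0.34 in 5-3.14, 0.11 in 5-3.19, 0.34 in 1-1.2 and 0.27 in 1-1.16. Among the bright non-members the medians were 0.12, 0.01, 0.16 and 0.01 in the same order, so other bright probe sets also lay above the parental array in 5-3.14 and 1-1.2, by less than the members. The brightest 10% began at a mean signal of 4758.7, whereas 30 of the 45 members had 15000 or more, so the groups were not matched for signal. At least 1.5-fold above the parental array were 9 members in 5-3.14 (10.4% of all probe sets), 1 in 5-3.19 (8.94%), 3 in 1-1.2 (6.92%) and 5 in 1-1.16 (12.5%), and 0 members were 1.5-fold below it in any clone (13.9%, 8.58%, 10.6% and 11.9% of all). Rps24 by 1390494_at was past that limit in every clone.

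The highest of the 5 signals was on the parental array for 0 members (19.7% of all probe sets). It was on 1-1.2 for 20 members (15.7%), on 5-3.14 for 18 (21.1%), on 1-1.16 for 5 (25.2%) and on 5-3.19 for 2 (18.3%). The 34 probe sets that list several genes gave similar medians, 0.33, 0.17, 0.33 and 0.16 in 5-3.14, 5-3.19, 1-1.2 and 1-1.16. In every clone, 25 of 34 were above the parental array (18.4% of all tested probe sets).

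**Figure D3:**
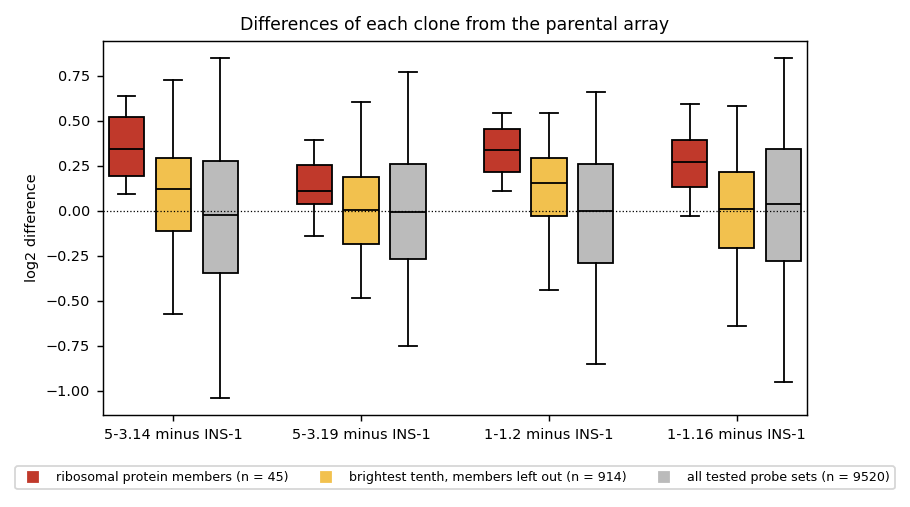
Boxes give the median and quartiles, and whiskers the percentiles 5 and 95, of log2 differences of each clone from the parental array (vertical axis) for the 45 ribosomal protein members, the 914 brightest other probe sets and all 9520 tested probe sets. With signals as deposited, the member boxes lie above 0 in every clone, lowest in 5-3.19 with a median of 0.11.

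The hybridisation controls also read higher on the clone arrays. The 18 probe sets for transcripts added just before hybridisation read 1.35 times the parental signal in 5-3.14, 1.14 times in 5-3.19, 1.30 times in 1-1.2 and 1.24 times in 1-1.16. The clones come in the same order by these ratios as by the member medians, of which those of 5-3.14 and 1-1.2 were nearly equal (0.341 and 0.338). Probe sets for control transcripts meant to be added before labelling went the other way and were dimmer in the clones, from 0.280 of the parental signal for lys to 0.785 for phe. Whether those transcripts were added to these samples is not given here. For beta-actin, the probes near the 3′ end read 1.49 to 1.73 times those near the 5′ end in the clones and 1.60 times in INS-1, a check on RNA integrity. When the arrays were scaled to the hybridisation controls, the median over all tested probe sets moved to −0.31 and that over the members to −0.04. This scaling moves every probe set of an array by the same amount, so the members stay 0.27 above the rest by arithmetic alone. Under it, 18 of 45 had a higher mean in the clones. In all 4 clones 6 members were higher (3.79% of all probe sets). The direction of the members' difference thus depended on this scaling, and the part of the added controls' shift in it was not tested. The difference was smaller under quantile normalization (median 0.15, 27 of 45 higher in all 4 clones, 19.7% of all) and cyclic loess (0.19, 29 of 45, 18.2% of all). Under these 2 the highest member median was in 1-1.16 (0.232 and 0.267).

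Difference and signal were related among the 42 structural members. The 9 with a mean signal of 25000 or more had a median difference of 0.11, the 13 between 20000 and 25000 had 0.29, the 8 between 15000 and 20000 had 0.34, the 8 between 5000 and 15000 had 0.36, and the 4 under 5000 had 0.46. Across these probe sets, which share the same 5 arrays and are not independent, Spearman's rho was −0.57 and Pearson's r with log2 signal −0.40. Within genes, the dimmer probe set had the larger difference for Rps24 (0.81, against 0.11) and Rpl7 (0.43, against 0.29), whereas the 3 probe sets of Rpsa had 0.48, 0.37 and 0.44 from the dimmest to the brightest. The brightest signal of any probe set was 42217, and Rps23 reached 38209. Whether signals near the top of the scale are compressed was not tested.

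**Figure D4:**
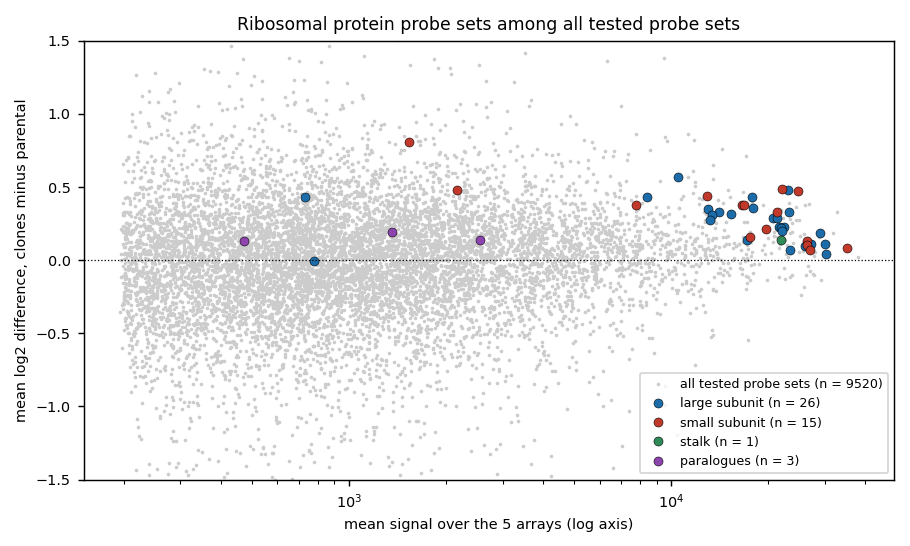
Points are probe sets, with the mean signal over 5 arrays on a log horizontal axis and the mean log2 difference of the clones from the parental array on the vertical axis, which stops at 1.5 either way and so leaves out 86 of 9520 grey points. All coloured members but Rpl39 lie above 0, and the 9 structural ones beyond a signal of 25000 lie near it, with a median of 0.11.

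The second comparison, between the clone sets, called no ribosomal protein gene. limma called 0.42% of all tested probe sets and 0 of 45 members, whose adjusted p ran from 0.437 to 0.992, and none had an unadjusted p under 0.05 (1413 of all probe sets did). The median difference of 5-3 minus 1-1 was −0.04, the same as over all probe sets (−0.04), and 29 of 45 members were lower in 5-3 (54.2% of all). The members' median turned positive without 5-3.19 (0.06) and without 1-1.2 (0.02). The sets did not overlap for 4 members with higher signal in 5-3 (22.1% of all) and 5 with lower signal in 5-3 (24.5% of all). With 2 clones a set and 2 residual degrees of freedom, a median standard error of 0.17 on the log2 scale limits what could be seen.

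Where the sets did not overlap, the differences were small. Rpl4 had the lowest p of the members, averaging 7793 in the 5-3 clones and 9931 in the 1-1 clones, a difference of −0.35 ± 0.18 (limma adjusted p = 0.437). Rplp0 averaged 20059 in the 5-3 clones and 24692 in the 1-1 clones (−0.30 ± 0.17), Rps27l 416.7 and 552.6 (−0.44 ± 0.31), Rpl7l1 by 1389013_at 2306 and 2904 (−0.33 ± 0.22), and Rpl6 24742 and 27936 (−0.18 ± 0.14). The other way went Rps24 by 1390494_at with 1870 in the 5-3 clones and 1509 in the 1-1 clones (0.30 ± 0.23), Rpl12 with 20280 and 17374 (0.21 ± 0.17), Rps6 with 22691 and 21754 and Rpl5 with 22703 and 22558.

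Clones of the same set also differed. The signal of 5-3.19 was below that of 5-3.14 for 41 of 45 members (52.1% of all probe sets), with a median of −0.21, and 1-1.16 was below 1-1.2 for 27 of 45 (44.5% of all), with a median of −0.11. These pairs have 1 array each and no test. The 914 bright non-members had medians of −0.14 and −0.13 for the same pairs. In 5-3.14, Rpl12 (22752, next 17808) and Rpl14 (14206, next 11340) stood above all other arrays, and in 5-3.19 Rps27l stood below them (306.3, next 427.9 in INS-1).

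Other genes of ribosome production were read from lists, taking the brightest probe set of each gene. Their differences from the parental line are given with signals as deposited and depended on that scale: scaled to the hybridisation controls, the medians were −0.06 for elongation factors (3 of 8 higher), −0.10 for the TOP class (4 of 13), −0.10 for initiation factors (6 of 34), −0.11 for RNA polymerase I genes (5 of 13), −0.18 for mitochondrial ribosomal proteins (18 of 71) and 0.04 for assembly factors (40 of 72). Under that scaling the median over all 9520 tested probe sets was −0.31, below each of these list medians. The medians of 5-3 minus 1-1 of assembly factors, initiation factors and mitochondrial ribosomal proteins stayed negative under the 5 other scalings tried. Elongation factors had a higher mean in the clones for 8 of 8 tested genes (51.0% of all probe sets), with a median of 0.26. In all 4 clones, 4 of 8 were higher (18.4% of all). Eef1d read 7228, 6967, 7866 and 7336 in 5-3.14, 5-3.19, 1-1.2 and 1-1.16, against 5095 in INS-1, and Eef1g, another subunit of the complex that recharges the elongation factor with GTP, read 19727, 17028, 19074 and 19112, against 14236. Genes of the TOP class other than the members were higher for 12 of 13 (median 0.22), led by Naca, the nascent chain partner, with 15767, 14391, 13585 and 13964 in the clones in that order, against 9819 in INS-1. This list shares Eef1d, Eef1g and other genes with the elongation factors, and Eif3f, Eif3h and Eif4b with the initiation factors. It also holds Rack1, so it is not separate from the other lists. Rack1, a ribosomal scaffold protein outside the name rule, read 19006 to 22795 in the clones and 19267 in INS-1. limma called 0 genes of these lists in either comparison.

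Ribosome assembly factors, which process ribosomal RNA and load the proteins onto it, were higher on average in the clones for 66 of 72 tested genes (51.0% of all probe sets), with 30 higher in all 4 clones (18.4% of all) and a median of 0.36. Their pattern over the clones differed in order from that of the members: the medians were 0.13 in 5-3.14, 0.20 in 5-3.19, 0.41 in 1-1.2 and 0.71 in 1-1.16. Between the sets, 62 of 72 were lower in 5-3 (54.2% of all), by a median of −0.45, where the members had −0.04. Ltv1, which helps the small subunit leave the nucleus, read 259.2 in 5-3.14, 501.8 in 5-3.19, 842.8 in 1-1.2 and 895.8 in 1-1.16, with INS-1 at 629.2, a set difference of −1.22 ± 0.33. Mrto4, a factor of large subunit assembly related to the stalk protein Rplp0, read 1122 in 5-3.14, 958.9 in 5-3.19, 1580 in 1-1.2 and 1929 in 1-1.16, against 699.0 in INS-1, so every clone was above. No assembly factor passed limma between the sets. Ddx47 had the lowest limma adjusted p (0.131) and a set difference of −1.24 ± 0.28. It read 636.2 in 5-3.14, 691.0 in 5-3.19, 1255 in 1-1.2 and 2017 in 1-1.16, against 1522 in INS-1. Its mean difference from the parental line was −0.55, against the direction of most of the list.

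Initiation factors were higher in the clones for 28 of 34 (51.0% of all probe sets, median 0.22) and lower in 5-3 than in 1-1 for 28 of 34 (54.2% of all, median −0.22). Among them Eif2b1, a subunit of the exchange factor that recycles eIF2, read 1836 and 1752 in 5-3.14 and 5-3.19 but 2605 and 3158 in 1-1.2 and 1-1.16, with INS-1 at 1988. RNA polymerase I genes were higher in the clones for 12 of 13 (51.0% of all, median 0.20), with Polr1e at 445.4 in 5-3.14, 426.3 in 5-3.19, 601.6 in 1-1.2 and 920.1 in 1-1.16, against 314.1 in INS-1. That list also holds genes named for RNA polymerase II (Polr2e, Polr2f, Polr2h, Polr2k and Polr2l), so it is not particular to RNA polymerase I. Mitochondrial ribosomal proteins, a list added after the data were seen, were higher for 52 of 71 (51.0% of all, median 0.14) and lower in 5-3 for 61 of 71 (54.2% of all, median −0.26). Mrps35 read 214.9 in 5-3.14, 303.5 in 5-3.19, 601.0 in 1-1.2 and 1048 in 1-1.16, with INS-1 at 517.2. Set differences of these lists against those of the cytosolic ribosomal proteins were not tested.

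Regulators of ribosome production were split with signals as deposited, with 13 of 31 tested genes of the mTOR, Myc and p53 list higher on average in the clones and a median of −0.06, or 1 of 31 and −0.38 scaled to the hybridisation controls. Over all tested probe sets the median under that scaling was −0.31. Myc, a transcription factor that drives ribosome production, read 744.9 in 5-3.14, 601.1 in 5-3.19, 906.5 in 1-1.2 and 2438 in 1-1.16, against 955.1 in INS-1, so 1-1.16 alone was far above. Mycn, its relative, read 142.0, 188.2, 142.5 and 158.1 in 5-3.14, 5-3.19, 1-1.2 and 1-1.16, against 460.5 in INS-1. Sesn1, a sestrin that restrains mTOR, read 1026 and 1183 in 5-3.14 and 5-3.19, against 287.8 and 141.4 in 1-1.2 and 1-1.16, with INS-1 at 1181, a set difference of 2.32 ± 0.34 that did not pass (limma adjusted p = 0.0533).

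**Figure D5:**
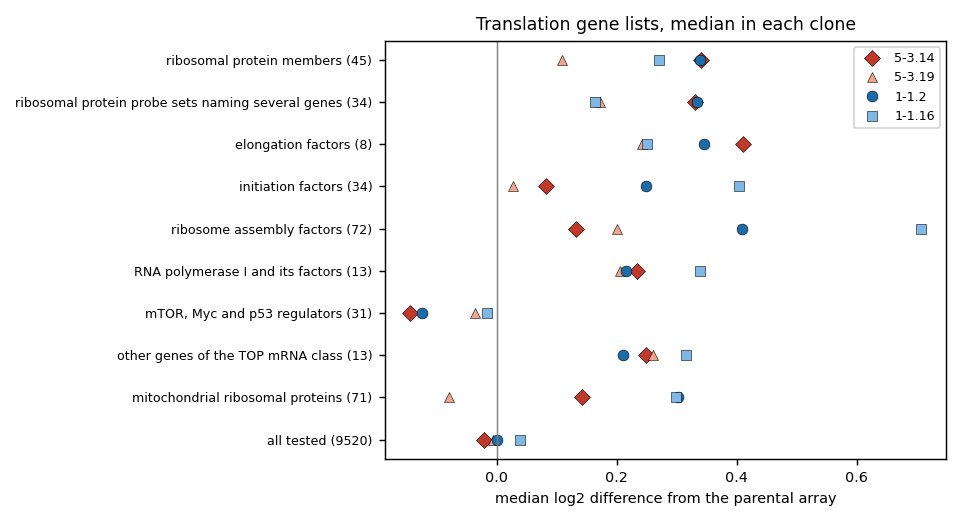
Symbols give the median log2 difference of each clone from the parental array (horizontal axis) over the tested probe sets or genes of each list, with their number in brackets. With signals as deposited, ribosomal protein members and elongation factors are highest in 5-3.14 and 1-1.2, whereas ribosome assembly factors reach 0.71 in 1-1.16 and 0.13 in 5-3.14.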

How the data were processed

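Rat expression arrays read total RNA from 4 clones and parental INS-1, 1 array each. The authors deposited signal intensity on a linear scale for every probe set; the software and background correction behind it are not given here. After trimming 2% at either end, array means were 1000.24 to 1000.28, so the signals were left on their deposited scale. Precision is limited by the number of arrays. Of 15923 probe sets, 57 controls were left out. A platform table gave 12783 probe sets 1 gene symbol, 312 several and 2771 none, and 48 of 50 member probe sets had a gene number in the GRCr8 table, with 0 symbols changed.

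Signals were taken as log2(signal + 21.8), the offset being the 10th percentile of positive signals, so folds understate the change of dim genes. The 9520 probe sets whose mean log2 level was at or above the 40th percentile were tested with limma 3.58.1 in R 4.3.3 (lmFit, eBayes with intensity trend), Benjamini-Hochberg adjusted at 0.05: the 4 clones against the parental array, and set 5-3 against set 1-1 in a fit with 3 groups. The p-values measure only the spread between these clones. The fit was also run on simulated arrays with independent noise of the size seen within sets, shuffled over probe sets. That setting differs from these data, and no result here rests on it. Named genes were the members farthest from and nearest to the parental line among those with all clones on 1 side. Members whose sets did not overlap and those that set an array apart were also named. So were the paralogues, the brightest and dimmest, genes with several probe sets and a fixed set of well-known proteins. In other lists, the genes named are some of those with the largest differences, and others with differences as large are not named. Members, lists and rules were chosen with earlier results of these data known. Alternatives covered scaling, offset, filter, variance model, probe sets and leaving out each clone. Scaling to the brightest 10% and to the hybridisation controls was added after the data were seen.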

Additional observations from a re-analysis of the deposited data

Results flagged for a closer look

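In 3 of 45 tested members 1 clone lay apart from the other 3 by Dixon's ratio, the gap to the nearest clone over the range of the 4 (past its 95% critical value). Chance gives about 1 in 20, so 3 of 45 is close to what chance gives. Rps3 was low in 5-3.19, at 17786 (ratio 0.886), where the other clones read 20917 to 21320 and INS-1 17435. Rpl12 was high in 5-3.14, at 22752 (ratio 0.88), where the others read 17135 to 17808. Rps27l was low in 5-3.19, at 306.3 (ratio 0.839), where the others read 527.1 to 569.5.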

How the results depend on the processing

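The members' median difference of the clones from the parental line stayed positive under every alternative except scaling to the hybridisation controls: 0.154 under quantile normalization, 0.216 to 0.324 without each clone in turn, and −0.044 under scaling to those controls. With that scaling 6 members instead of 34 were higher in all 4 clones, against 3.79% instead of 18.4% of all tested probe sets. Under that scaling the medians of 5-3.14, 5-3.19, 1-1.2 and 1-1.16 were −0.073, −0.075, −0.030 and −0.029. Quantile normalization and cyclic loess gave 0.172 and 0.204 in 5-3.14 and 0.145 and 0.169 in 1-1.2. Without each clone in turn, 34 to 39 members were higher in all clones kept, against 21.2% to 26.4% of all tested probe sets. The median of 5-3 minus 1-1 ran from −0.125 to 0.060, so it has no settled direction. It was 0.018 without 1-1.2 and 0.060 without 5-3.19. limma called 0 members in either comparison and 0 probe sets between clones and parental line under every alternative. Between the sets it called 40 probe sets, against 70 with median centring, 64 with a larger offset, 10 without the filter, 12 with a stricter filter, 12 with scaling to the controls, and 47 to 329 without each clone in turn, with 225 without 5-3.14 and 329 without 5-3.19. Of the 45 members, the mean difference from the parental line took the other sign for 1 with median centring, 5 under quantile normalization, 9 under cyclic loess, 1 centred on the brightest 10% and 26 under scaling to the controls. Among those followed singly, Rplp0 was −0.041 under quantile normalization, Rpl6 −0.013 and Rps24 (1369966_a_at) −0.006 under cyclic loess, and under scaling to the controls Rplp0 was −0.176, Rpl6 −0.217, Rps24 −0.209, Rpl11 −0.044, Rpl7l1 −0.125 and −0.175, Rps27l −0.182 and Rpl5 −0.119. Between the sets, Rpl5 was −0.049 under quantile normalization and −0.017 centred on the brightest 10% of probe sets. Median centring, centring on the brightest 10% and scaling to the controls each subtract 1 value per array from every probe set. A difference therefore moves by the same amount for all probe sets, whose median went from 0.007 to −0.309 under scaling to the controls. The cause of the moves under quantile normalization and cyclic loess was not tested. No paired analysis was possible because the clone numbers pair no samples across groups. Dim probe sets cannot be told from background, and bright ones may be near the top of the scale.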
